A study of Mus musculus with 12 samples.

Results

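The cytosolic and mitochondrial heat shock chaperones are the proteins that fold, hold, refold and deliver other proteins in the cytosol and in mitochondria. They were taken here as 38 mouse genes, chosen by name through the Ensembl identifiers of the files, out of 33906 gene identifiers measured. They comprised 7 small heat shock proteins, 11 genes of the Hsp70 and Hsp110 class, 2 Hsp90 genes, 4 mitochondrial chaperones, 10 J-domain proteins and 4 co-chaperones and regulators. Of the 38 genes, 36 had enough reads to be tested. Hspb2 and Hspb3 did not.

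Lumbar spinal cord RNA of 12 mice was sequenced, with 3 mice in each of 4 groups. Mice of a model of amyotrophic lateral sclerosis (ALS), a disease in which motor neurons degenerate, received phosphate-buffered saline (group P, mice P66, P67 and P74) or manganese-doped carbon dots, written Mn@CDs (group C, mice C79, C84 and C85). The dots are described in the title as nanozymes, particles with an activity like that of superoxide dismutase. A further group of ALS model mice (group E, mice E75, E77 and E90) was read as the edaravone group by elimination, since the series text lists a code E but describes edaravone, a radical scavenger given in ALS, under a code D. Healthy wild-type mice formed group H (H1, H2 and H4). The sources used here give neither the gene that drives the model nor its strain, ages or doses. All P, C and E mice carry the model, so no group shows the treatments in healthy mice.

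Heat shock proteins are made at a basal level in every cell, and many are induced when proteins misfold. Heat shock factor 1 (Hsf1) drives that induction by binding short GAA and TTC repeats in their promoters. Small heat shock proteins hold unfolding proteins without using ATP, Hsp70 proteins refold them in an ATP-driven cycle with J-domain and nucleotide exchange partners, and Hsp90 proteins finish kinases, receptors and other clients. Motor neurons are known for a weak heat shock response, and astrocytes are a main source of small heat shock proteins in the injured cord.

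The deposited values are FPKM, a read number divided by exon length and by library total, and 16.8 to 19.8 M reads per library were recovered from them. Differences below are on the log2(FPKM + 1) scale, given as value ± standard error from limma with 3 mice per group, and adjusted p is Benjamini-Hochberg over the 18118 genes tested, with a threshold of 0.05. Markers of cord cells were present in every library, among them Chat of motor neurons at 3.41 FPKM or more. In the 3 ALS model groups against H, 7 of 7 reactive astrocyte markers and 7 of 7 microglia markers rose, and 6 of 8 neuron markers and 4 of 7 motor neuron markers fell. Of markers of tissue around the cord, 4 of 4 tested Schwann cell and 5 of 5 meningeal fibroblast markers rose and 5 of 5 blood markers fell, and 3 of 6 immediate early genes rose. Group E stood apart in nerve root tissue, with a Schwann marker sum of 165 to 441 FPKM, against 41.2 to 109 in P, 18.6 to 73.2 in C and 1.16 to 38.9 in H. The part of these tissues in the chaperone values was not tested. In bulk tissue, fewer cells of a type and less RNA per cell cannot be told apart. Library H1 stood apart by skeletal muscle: 11 muscle markers summed to 2547 FPKM there, against 232 in H2, 25.7 in H4, 183 in P74, 47.2 in E90 and 2.75 to 12.2 in the other libraries. Library H4 had the highest sum of 5 blood markers, 2577 FPKM, against 108 to 1264 elsewhere, and the lowest sum of 8 caudal Hox genes, 3.44 FPKM, against 9.92 to 90.7 elsewhere. Results that rest on these libraries are given below with and without them.

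Levels of the chaperones spanned a wide range. Summed over all 38 genes they held 2441 to 3125 FPKM in P, 2757 to 2989 in C, 2605 to 3030 in E and 2340 to 3167 in H, so the groups overlapped. Hsp90ab1, the constitutive cytosolic Hsp90, was the most abundant member, at 510, 625 and 704 FPKM in P, 647, 626 and 593 in C, 577, 678 and 677 in E and 652, 731 and 514 in H. Hspa8, the constitutive Hsp70 (Hsc70), followed at 452, 533 and 619 FPKM in P, 531, 500 and 477 in C, 477, 594 and 580 in E and 525, 574 and 405 in H. In both genes the H libraries overlapped all 3 ALS model groups. The inducible Hsp70 genes were far lower, with Hspa1b at 0.825 to 18.4 FPKM and Hspa1a at 1.09 to 4.82 FPKM over the 12 libraries. At the low end, Hspb2 lay at 0 to 0.617 FPKM (0 to 8 reads) and Hspb3 at 0.0713 to 0.992 FPKM (1 to 13 reads).

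**Figure D1:**
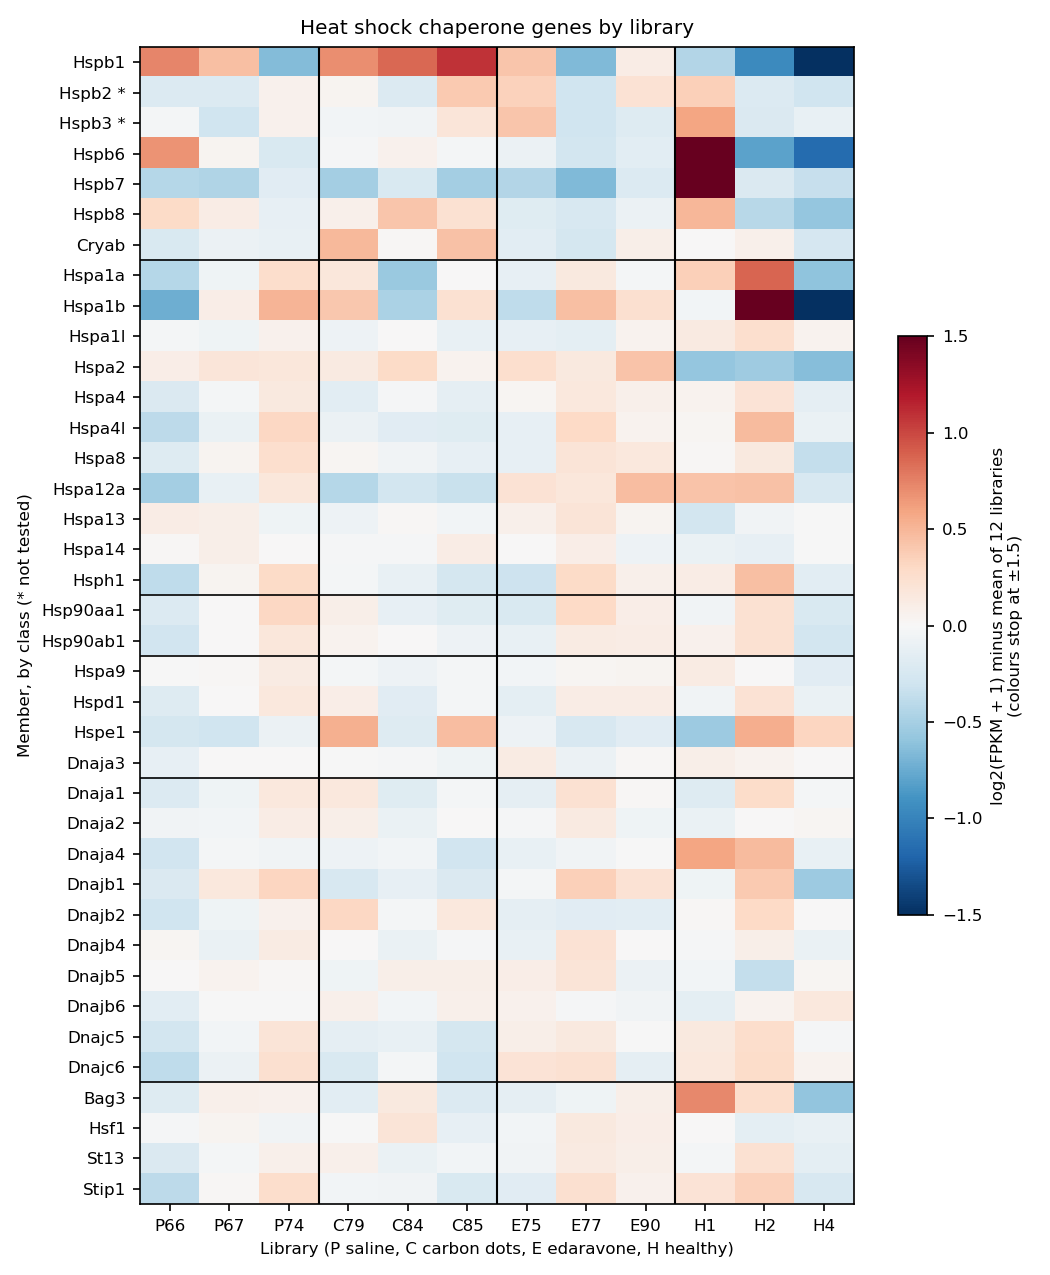
Each cell shows 1 of the 38 chaperone genes in 1 of the 12 libraries as log2(FPKM + 1) minus the gene's mean over all libraries, with colours that stop at 1.5 in either direction; lines separate gene classes and groups, and stars mark the 2 genes not tested. Hspa2 is lower in all 3 H libraries than in the 9 ALS model libraries, Hspb7 stands out in H1 alone, and most Hsp70 and Hsp90 genes vary between mice of a group rather than between groups.

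Few of the 36 tested chaperones differed between ALS model and healthy mice. In the mean of the 3 ALS model groups against H, 3 of 36 (8.33%) passed, against 20.6% of all genes tested. Hspa2 and Hspb1 rose, where 16.4% of all genes rose, and Dnaja4 fell, where 4.19% of all genes fell. The shares by direction depend on scale: of all calls 79.6% were higher, and 53.2% with median-ratio scaling. In the single groups against H, Hspa2 passed in P, with 15.5% of all genes, Hspa2 and Hspb1 passed in C, with 8.31% of all genes, and Hspa2 passed in E, with 13.2% of all genes. These 3 comparisons share the H libraries. The median difference of the 36 members was -0.02 in the ALS model groups against H, beside 0.07 over all genes tested. With median-ratio scaling these medians were -0.13 and -0.003. Of the 36 confidence intervals, 32 lay within a 2-fold change of FPKM + 1 in either direction. For low genes such as Hspa1l this scale understates the change in FPKM. Leaving out H1 gave 4 members that passed, with 13.4% of all genes, and leaving out H4 gave 6, with 19.9% of all genes. Leaving out H2 left 1, Hspa2, with 8.58% of all genes. Only Hspa2 passed in all 3 of those fits.

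**Figure D2:**
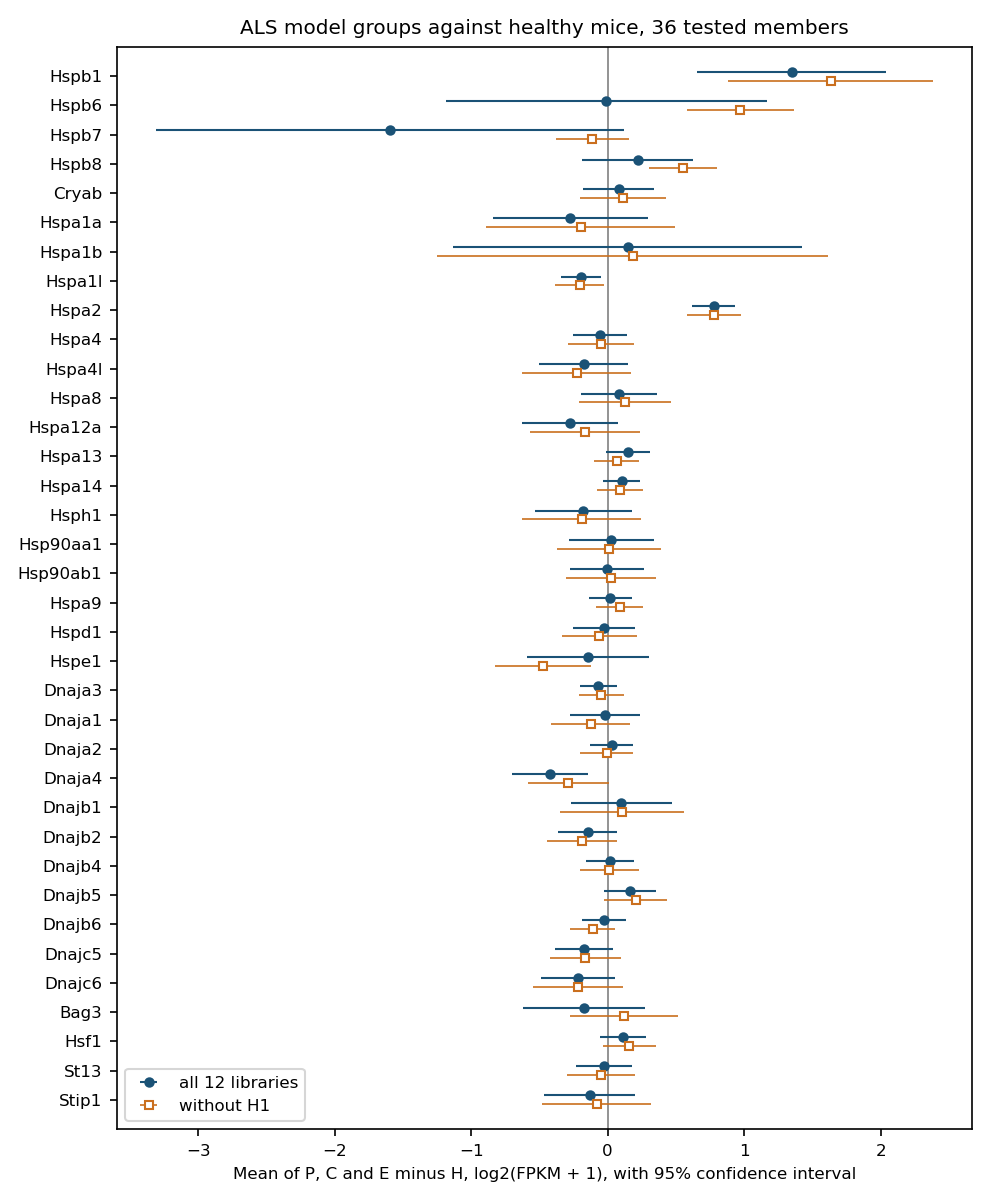
Points show the difference between the mean of P, C and E and the mean of H on the log2(FPKM + 1) scale for the 36 tested chaperones, with 95% confidence intervals, filled with all 12 libraries and open without H1. Hspa2 and Hspb1 lie above 0 both times, Hspb6 moves to 0.97 and Hspb8 to 0.55 without H1, and Hspb7 moves to -0.11.

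Hspa2, a member of the Hsp70 family best known for its part in sperm development and also expressed in brain, was higher in every ALS model mouse (ENSMUSG00000059970, chromosome 12, 76404176 to 76406938, plus strand of GRCm38). It had 14.5, 15.5 and 15.3 FPKM in P, 14.9, 16.6 and 14.0 in C and 16.3, 15.1 and 18.5 in E, against 8.70, 9.06 and 8.31 in H. The lowest ALS model library, C85, lay above the highest healthy one, H2. It was the only member whose 9 ALS model libraries all lay above the 3 healthy ones, a pattern that 14.1% of all genes tested showed. The group means were 15.1 ± 0.501 FPKM in P, 15.2 ± 1.34 in C and 16.6 ± 1.76 in E, against 8.69 ± 0.372 in H (SD, n = 3 each). Hspa2 rose by 0.73 ± 0.09 in P (limma adjusted p = 0.000724), 0.74 in C and 0.86 in E, and by 0.78 ± 0.07 in all 3 (95% confidence interval 0.62 to 0.94, adjusted p = 9.63e-05). It passed in all 16 alternative fits of that last comparison, at 0.67 to 0.84. No stretch of 75 bases of its exons occurred in another gene, and no other annotated exon overlapped it. Of the 11 genes of its class, the other 10 did not pass with all 12 libraries.

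Hspb1, which encodes the small heat shock protein Hsp25 (Hsp27 in human), varied widely between mice of 1 group (ENSMUSG00000004951, chromosome 5, 135887919 to 135889563, plus strand). It had 106, 86.9 and 39.9 FPKM in P, 103, 116 and 135 in C and 84.6, 39.6 and 68.5 in E, against 46.5, 32.1 and 19.7 in H. The C libraries lay above all of H, while P74 and E77 lay below H1. Means were 77.5 ± 33.9 FPKM in P, 118 ± 16.0 in C and 64.2 ± 22.8 in E, against 32.8 ± 13.4 in H (SD, n = 3 each). Hspb1 rose in C by 1.89 ± 0.39 (limma adjusted p = 0.0133) and in the 3 ALS model groups together by 1.35 ± 0.32 (95% confidence interval 0.66 to 2.04, adjusted p = 0.0127). It did not pass in P (1.19 ± 0.39, adjusted p = 0.0583) or in E (0.96 ± 0.39, adjusted p = 0.12). The joint call was lost without H2 (1.37, adjusted p = 0.0528) and without H4 (1.03, adjusted p = 0.0546), and the call in C without C84 or C85 (adjusted p = 0.0517 and 0.0605). Without H1 the joint difference was 1.63 (adjusted p = 0.0121), and P passed at 1.47 (adjusted p = 0.0389).

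The low Hspb1 values of ALS model mice came from libraries that were also low in glial markers. The sum of 7 reactive astrocyte markers was 1437 FPKM in P74 and 1327 in E77, against 1793 to 3018 in the other ALS model libraries and 375 to 523 in H. The sum of 7 microglia markers was 149 in P74 and 144 in E77, against 208 to 351 in the other ALS model libraries and 39.3 to 57.9 in H. Other libraries did not follow this order. H4 had the highest of both sums in H but the lowest Hspb1 there, 19.7 FPKM. C79 lay below E90 in both sums (1793 against 1971 and 208 against 228 FPKM) but had more Hspb1 (103 against 68.5 FPKM). The part of these cells in the Hspb1 values was not tested. Of the 75-base stretches of Hspb1, 46.4% also occur in the pseudogene Hsp25-ps1, which is not among the gene identifiers measured. The division of reads between the copies is thus uncertain.

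**Figure D3:**
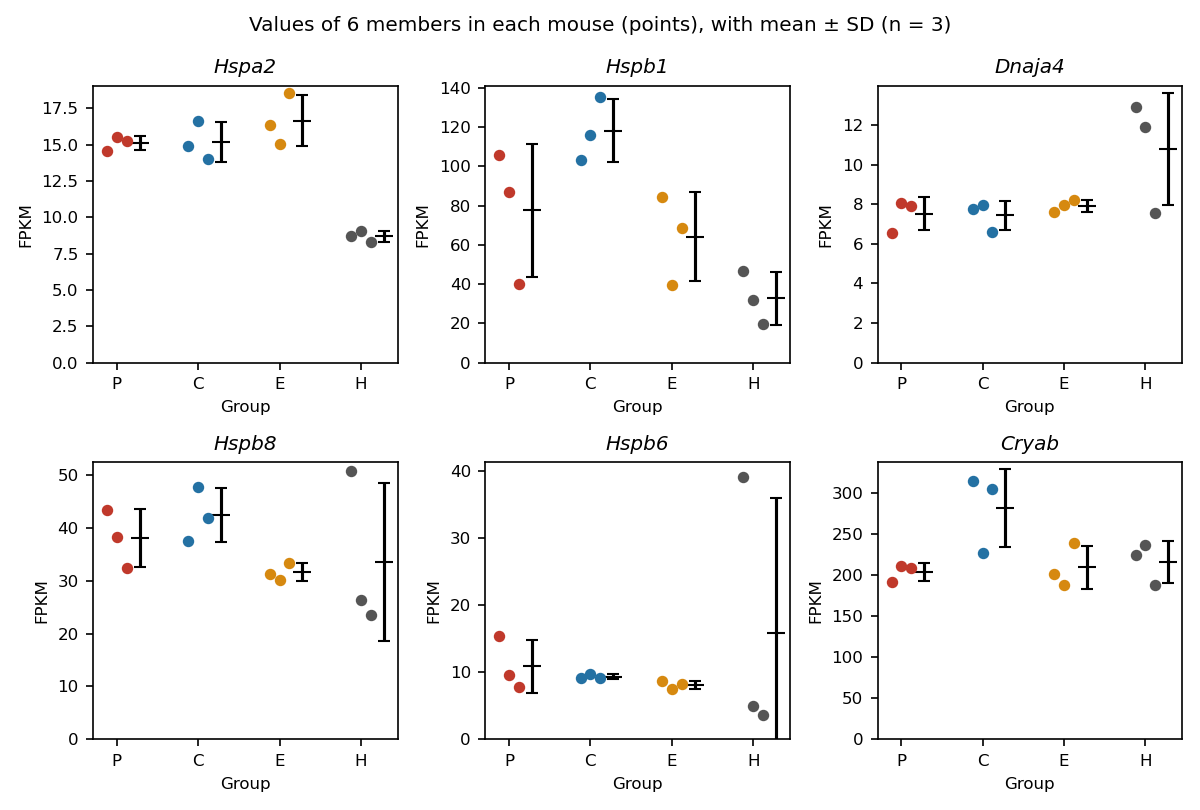
Points are the FPKM of single mice for 6 chaperone genes, by group (P saline, C carbon dots, E edaravone by elimination, H healthy), with bars for the mean ± SD of 3 mice; the lower end of the H bar of Hspb6 is cut at 0. Hspa2 separates H from the 3 ALS model groups, Hspb1 and Cryab are highest in C, and the H values of Hspb6 and Hspb8 are spread by H1 at 39.1 and 50.8 FPKM.

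Promoter sequences are shown for the 3 genes that passed, for the inducible Hsp70 pair and for Hspe1, because heat shock factor binds inverted GAA and TTC repeats. The bases come from the RefSeq table on GRCm38.p6 and run 5′ to 3′ on the strand of the gene. They end upstream of a RefSeq start, and capitals mark matches. For Hspa2 and Dnaja4 the stretches lie inside the Ensembl gene span, which begins at base 76404176 for Hspa2 and 54698873 for Dnaja4. The motifs searched were GAANNTTC and TTCNNGAA, which read the same on both strands and can overlap each other, and the longer GAANNTTCNNGAA on either strand.
Hspb1, chr5:135887669-135887918, plus strand: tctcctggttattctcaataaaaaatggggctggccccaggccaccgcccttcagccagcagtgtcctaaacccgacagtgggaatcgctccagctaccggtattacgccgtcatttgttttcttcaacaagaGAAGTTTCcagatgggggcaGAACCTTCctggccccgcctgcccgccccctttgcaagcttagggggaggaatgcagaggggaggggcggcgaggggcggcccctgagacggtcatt
Hspa1b, chr17:34959239-34959488, minus strand: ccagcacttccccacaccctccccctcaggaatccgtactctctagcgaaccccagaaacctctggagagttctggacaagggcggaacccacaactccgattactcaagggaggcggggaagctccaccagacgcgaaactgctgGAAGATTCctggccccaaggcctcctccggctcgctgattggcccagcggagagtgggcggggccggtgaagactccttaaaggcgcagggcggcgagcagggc
Hspa1a, chr17:34972157-34972406, minus strand: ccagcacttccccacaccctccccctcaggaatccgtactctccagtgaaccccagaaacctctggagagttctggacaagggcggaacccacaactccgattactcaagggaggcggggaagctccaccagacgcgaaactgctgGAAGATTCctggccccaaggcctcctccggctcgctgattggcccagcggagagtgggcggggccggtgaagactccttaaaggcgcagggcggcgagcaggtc
Hspa2, chr12:76404290-76404369, plus strand: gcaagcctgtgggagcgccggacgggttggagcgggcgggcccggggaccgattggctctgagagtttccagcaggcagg
Dnaja4, chr9:54699414-54699514, plus strand: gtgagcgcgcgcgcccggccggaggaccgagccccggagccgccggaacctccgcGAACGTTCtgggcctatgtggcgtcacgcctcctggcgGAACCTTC
Hspe1, chr1:55088053-55088082, plus strand: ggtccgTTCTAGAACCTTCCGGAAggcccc
The Hspb1 window holds 2 matches of GAANNTTC, beginning 117 and 97 bases before the start. Those of Hspa1b and Hspa1a hold 1 each, 104 bases before the start, and the 2 windows agree at 247 of 250 bases. The stretch of Dnaja4 holds 2, and that of Hspa2 holds none of the 3 motifs. In Hspe1 the longer motif lies on both strands in overlapping matches.

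The same letters were counted over all promoters. The RefSeq table held 42 promoters of 28 members, and the 250 bases before each start were searched. GAANNTTC was present in 11 of 42 (26.2%), which belong to 10 genes, and in 6.69% of 32851 promoters. TTCNNGAA was present in 7 of 42 (16.7%) and in 7.17% of all promoters. The longer motif was present in 4 of 42 (9.52%), those of Dnajb6, Hspd1 and Hspe1, and in 0.466% of all promoters. Some of these windows overlap. Hspd1 and Hspe1 match at the same bases, and so do the windows of Dnajb6 and those of Hsph1 among themselves. The member shares thus count some bases more than once. Overlapping windows were not merged over all promoters either. Of the members with GAANNTTC, Hspb1 rose and Dnaja4 fell in the ALS model groups, while Dnaja1, Dnajb6, Hspa1a, Hspa1b, Hspb6, Hspd1 and Hspe1 did not pass and Hspb3 was not tested. A match says nothing about binding of the factor in this tissue.

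Among the other small heat shock proteins, the healthy values turned on library H1. Hspb7, a chaperone of heart and skeletal muscle, had 0.0402 to 0.467 FPKM in the 9 ALS model libraries, against 28.5, 0.414 and 0.292 in H1, H2 and H4. H1 was thus 68.8 times the next healthy library, and its muscle marker Acta1 stood at 796 FPKM, against 46.9 or less elsewhere. The difference of Hspb7 was -1.59 ± 0.77 with all libraries (limma adjusted p = 0.167) and -0.11 ± 0.12 without H1 (adjusted p = 0.567).

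Hspb6, the small heat shock protein Hsp20 of muscle, which astrocytes also express, had 15.3, 9.55 and 7.78 FPKM in P, 9.11, 9.74 and 9.06 in C and 8.60, 7.43 and 8.19 in E, against 39.1, 4.89 and 3.62 in H. All 9 ALS model libraries lay above H2 and H4 and below H1. With all libraries the difference was -0.01 ± 0.53 (limma adjusted p = 0.993). Without H1 it was 0.97 ± 0.18 and Hspb6 rose (adjusted p = 0.00699), as it did in P, C and E each. Hspb8, the partner of Bag3 in the disposal of misfolded proteins by autophagy, had 43.5, 38.4 and 32.5 FPKM in P, 37.6, 47.8 and 42.0 in C and 31.3, 30.1 and 33.5 in E, against 50.8, 26.3 and 23.6 in H. It too lay above H2 and H4 in all ALS model libraries. With all libraries the difference was 0.22 ± 0.19 (adjusted p = 0.424), and without H1 Hspb8 rose by 0.55 ± 0.11 (adjusted p = 0.0115). When single libraries were left out, the difference of Hspb8 ran from 0.014 to 0.55. In the fits without H1, 5 members passed in P (Hspb1, Hspb6, Hspb8 and Hspa2 as higher and Hspe1 as lower), with 11.6% of all genes. In C the same genes but for Hspe1, 4 in all, passed, with 4.92%, and in E 2 passed (Hspb6 and Hspa2), with 10.7%.

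H1 also had the highest sum of 7 smooth muscle and pericyte markers, 111.5 FPKM against 31.5 to 54.2 elsewhere. Des alone gave 65.1 FPKM of that sum, against 3.04 or less elsewhere. Acta2 (5.42 FPKM) and Myh11 (2.11 FPKM) in H1 lay within the range of the other libraries, 2.86 to 12.1 and 1.16 to 3.22. The muscle markers were not uniform: Tnnc2 was listed at 0 to 0.149 FPKM in all libraries, H1 included. P74, with the highest muscle sum among ALS model libraries, had the highest Hspb7 of its group but the lowest Hspb6 and Hspb8. The values without H1 are fits to 2 healthy mice. Bag3 itself had 17.6, 21.4 and 21.3 FPKM in P, 18.1, 22.5 and 17.5 in C and 18.3, 19.3 and 21.5 in E, against 34.2, 24.6 and 13.1 in H. It did not pass (-0.18 ± 0.21, adjusted p = 0.573), and its difference was 0.12 without H1 (adjusted p = 0.692) and -0.54 without H4 (adjusted p = 0.0198).

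**Figure D4:**
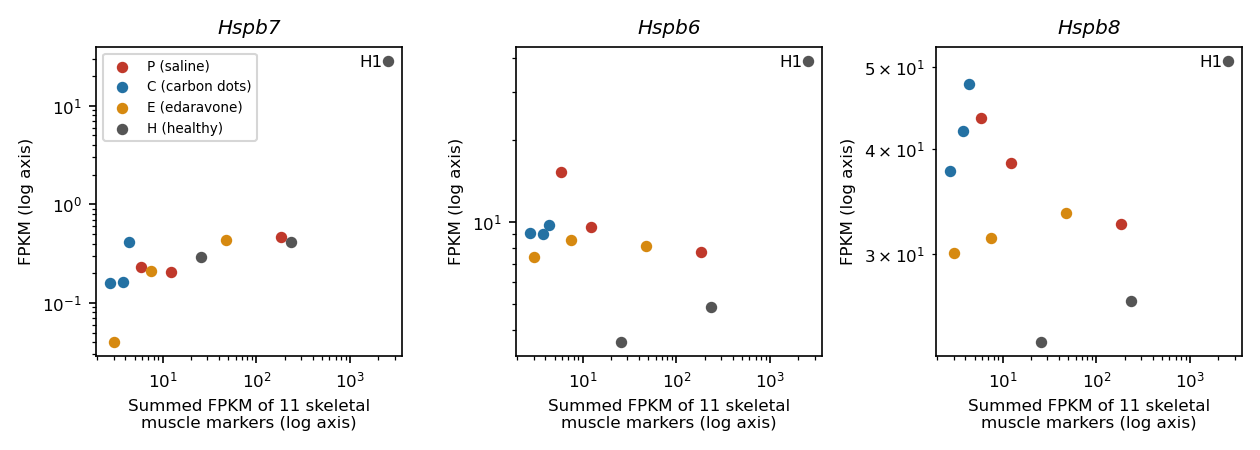
Each point is 1 library, with the summed FPKM of 11 skeletal muscle markers on the x axis and the FPKM of Hspb7, Hspb6 or Hspb8 on the y axis, both on log axes. H1 lies at 2547 on the x axis and is the highest library for all 3 genes, while H2 and H4 are the lowest for Hspb6 and Hspb8.

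Cryab, which encodes alpha B-crystallin, the most abundant small heat shock protein here and one made by oligodendrocytes and astrocytes, had 192, 212 and 209 FPKM in P, 315, 227 and 305 in C and 202, 188 and 239 in E, against 225, 237 and 188 in H. C79 and C85 lay above every library of the other groups, and C84 lay among them. Cryab differed by 0.08 ± 0.12 between the ALS model groups and H (limma adjusted p = 0.659). Its exons overlap those of Hspb2 on the opposite strand over 252 bases.

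Dnaja4, a J-domain partner of Hsp70, fell in the ALS model groups, but the call lay near the threshold and was not stable. It had 6.57, 8.08 and 7.93 FPKM in P, 7.76, 7.98 and 6.61 in C and 7.60, 7.97 and 8.22 in E, against 12.9, 11.9 and 7.57 in H. H1 and H2 lay above all ALS model libraries, and H4 lay among them. The joint difference was -0.42 ± 0.13 (95% confidence interval -0.70 to -0.14, limma adjusted p = 0.0363). It was -0.29 without H1 (adjusted p = 0.171), -0.34 without H2 (adjusted p = 0.176) and -0.64 without H4 (adjusted p = 0.00211), and 8 of 16 alternatives lost the call. The single groups did not pass (adjusted p = 0.074 in P, 0.0936 in C and 0.134 in E). The exons of Dnaja4 overlap those of Wdr61 on the opposite strand over 44.1% of their bases. Wdr61 lay at 4.09 to 5.84 FPKM and differed by 0.11 ± 0.08 (adjusted p = 0.358).

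The inducible pair Hspa1a and Hspa1b, the classical stress-induced Hsp70 genes, was dominated by the spread between mice. Hspa1b had 2.96, 6.04 and 8.39 FPKM in P, 7.75, 3.75 and 6.70 in C and 4.04, 7.98 and 6.76 in E, against 5.42, 18.4 and 0.825 in H. Within the healthy group the highest mouse was thus 22.3 times the lowest, and the joint difference was 0.15 ± 0.58 (95% confidence interval -1.13 to 1.43, limma adjusted p = 0.882). Hspa1a had 1.37, 2.06 and 2.81 FPKM in P, 2.59, 1.17 and 2.19 in C and 1.93, 2.53 and 2.13 in E, against 3.07, 4.82 and 1.09 in H (-0.27 ± 0.26, adjusted p = 0.484). Without H4 Hspa1a fell (-0.68 ± 0.21, adjusted p = 0.0463). Both genes were highest in H2 and lowest in H4 among healthy mice. The pair shares 52.7% of the 75-base stretches of Hspa1a and 55.8% of those of Hspa1b, so reads may be split between them.

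The remaining Hsp70 and Hsp110 genes did not pass with all 12 libraries. Hspa8 differed by 0.08 ± 0.13, which became -0.029 with median-ratio scaling, and 33.0% of its 75-base stretches occur elsewhere. The Hsp110 genes Hspa4, Hspa4l and Hsph1, which exchange the nucleotide of Hsp70, had means of 46.3, 23.0 and 53.1 FPKM in P, 44.0, 21.1 and 48.2 in C and 50.2, 25.0 and 54.2 in E, against 48.8, 26.2 and 58.9 in H, with differences of -0.06 ± 0.09, -0.18 ± 0.15 and -0.18 ± 0.16. Hspa13, an Hsp70 relative of the endoplasmic reticulum kept here because the list names it, differed by 0.15 ± 0.07 (limma adjusted p = 0.169). Hspa14, an Hsp70 of the ribosome, differed by 0.10 ± 0.06 (adjusted p = 0.266).

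Hspa12a, a distant Hsp70 relative enriched in brain, had 30.1, 40.0 and 48.9 FPKM in P, 31.9, 35.4 and 34.2 in C and 50.3, 48.8 and 60.1 in E, against 58.4, 58.9 and 36.3 in H (-0.28 ± 0.16, limma adjusted p = 0.237). H1 and H2 lay near the top, and H4 lay just above all C libraries. Without H4 the difference was -0.50 (adjusted p = 0.0345). Hspa1l, a low member of the inducible locus, had 0.494 ± 0.0677 FPKM in P, 0.441 ± 0.0583 in C and 0.432 ± 0.106 in E, against 0.669 ± 0.117 in H (SD, n = 3 each). It missed the threshold (-0.20 ± 0.07, adjusted p = 0.0563) and passed with median-ratio scaling (-0.24, adjusted p = 0.0301). The gene model Gm10501 overlaps 71.9% of its exon bases on the opposite strand and itself had 0.175 to 0.569 FPKM.

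The Hsp90 genes differed little between the groups. Hsp90aa1, the stress-inducible form, had means of 384 ± 71.0 FPKM in P, 353 ± 35.3 in C and 388 ± 70.2 in E, against 368 ± 59.2 in H, and Hsp90ab1 had 613 ± 97.2 in P, 622 ± 27.4 in C and 644 ± 57.9 in E, against 633 ± 110 in H (SD, n = 3 each). The differences were 0.03 ± 0.14 (95% confidence interval -0.29 to 0.34) and -0.01 ± 0.12 (-0.28 to 0.27), with limma adjusted p = 0.922 and 0.981. Of the 75-base stretches of Hsp90aa1, 42.8% occur in other genes.

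Of the 4 mitochondrial chaperones, 0 passed with all 12 libraries, beside 20.6% of all genes in the ALS model groups against H. Hspa9 (mortalin), the Hsp70 of the matrix, averaged 73.0 ± 3.72 FPKM in P, 68.3 ± 1.14 in C and 71.1 ± 2.09 in E, against 70.1 ± 7.16 in H (SD, n = 3 each). Hspd1 (Hsp60), the chaperonin of the matrix and the most abundant of the 4, had 79.3, 91.4 and 101 FPKM in P, 97.3, 80.5 and 89.2 in C and 82.1, 98.4 and 98.3 in E, against 87.5, 105 and 84.7 in H (-0.03 ± 0.10, limma adjusted p = 0.887). Its co-chaperonin Hspe1 (Hsp10), which shares the promoter region, had 29.8, 29.1 and 33.7 FPKM in P, 52.6, 31.4 and 50.01 in C and 34.0, 30.2 and 31.7 in E, against 24.3, 53.0 and 45.2 in H. Hspe1 thus had high and low libraries in both C and H, while Hspd1 did not show this spread. The difference of Hspe1 was -0.15 ± 0.20 (adjusted p = 0.644). In P against H it was -0.32 ± 0.25 (adjusted p = 0.391), and without H1 Hspe1 fell there (-0.65 ± 0.19, adjusted p = 0.0468). Dnaja3, the J-domain protein of mitochondria, differed by -0.07 ± 0.06 (adjusted p = 0.463).

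The other 9 J-domain proteins did not pass in the ALS model groups against H, with differences of -0.22 to 0.16. Dnaja2, a general partner of Hsc70 and the most abundant of them, had 60.8, 61.1 and 68.4 FPKM in P, 66.99, 58.9 and 63.6 in C and 62.3, 69.3 and 60.2 in E, against 59.0, 63.2 and 64.4 in H (0.03 ± 0.07, limma adjusted p = 0.817). Dnajb1, the inducible partner of Hsp70, averaged 19.3 ± 3.74 FPKM in P, 15.5 ± 0.739 in C and 20.5 ± 2.90 in E, against 17.6 ± 5.95 in H. The neuronal members were Dnajc5, the cysteine string protein of synaptic vesicles (-0.17 ± 0.10, adjusted p = 0.229), and Dnajc6, auxilin, which uncoats clathrin vesicles (-0.22 ± 0.12, adjusted p = 0.229). Dnajb2, an inhibitor of aggregation in neurons, differed by -0.15 ± 0.10 (adjusted p = 0.312), and Dnajb6, another inhibitor of aggregation, by -0.02 ± 0.07 (adjusted p = 0.842).

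Among co-chaperones, Stip1 (Hop), which links Hsp70 to Hsp90, was the most abundant, with 102, 135 and 161 FPKM in P, 130, 128 and 114 in C and 119, 159 and 140 in E, against 154, 170 and 113 in H (-0.13 ± 0.15, limma adjusted p = 0.566). St13 (Hip), which stabilises the ADP state of Hsp70, averaged 60.5 ± 6.28 FPKM in P, 61.7 ± 3.85 in C and 65.3 ± 4.29 in E, against 63.9 ± 8.70 in H (SD, n = 3 each). Hsf1, the regulator of the response, averaged 20.9 ± 0.748 in P, 21.4 ± 2.54 in C and 22.1 ± 1.54 in E, against 19.8 ± 1.17 in H, with a difference of 0.11 ± 0.08 (adjusted p = 0.316). Its messenger level does not measure its activity.

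Within each group the chaperones tended to be high or low in the same mouse. Of the 36 tested members, 24 were highest of their group in P74, 18 in C79, 21 in E77 and 22 in H2, beside 33.2, 26.6, 32.3 and 26.4% of all genes tested. The lowest value of the group fell in P66 for 26 members, in C85 for 15, in E75 for 18 and in H4 for 28, beside 37.6, 31.1, 30.8 and 34.5% of all genes. 12 members were highest in all 4 of P74, C79, E77 and H2: Hspa8, Hspa1a, Hspa1b, Hspa4l, Hsph1, Hsp90aa1, Hsp90ab1, Hspd1, Dnaja1, Dnajb4, St13 and Stip1. Of all genes tested, 2.27% (411) had that pattern. The libraries named were picked by the members' own values, as those with the most members highest or lowest in each group. An excess over the share of all genes is thus partly built in. Members share regulators and were described, not tested, here. The sum of 8 neuron markers was also highest of its group in P74 (1377 FPKM), C79 (1218) and H2 (2200), but E77 (1132) lay below E90 (1163). It was lowest in P66 (816), E75 (1050) and H4 (1531), as most chaperones were, but in C it was lowest in C84 (1112) and not in C85 (1147). The sum of 7 reactive astrocyte markers ran the other way, lowest of its group in P74 (1437 FPKM), C79 (1793), E77 (1327) and H2 (375). It was highest in P66 (3018), E75 (2225) and H4 (523), but in C it was highest in C84 (2371) and not in C85 (2197). The parts of neuron and astrocyte content in this order were not tested.

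No chaperone passed the test between treated and saline-given ALS model mice. In C against P, 0 of 36 passed, beside 0.00552% of all genes tested, and 1 member had an unadjusted p under 0.05. In E against P, 0 of 36 passed, beside 0.0% of all genes, and again 1 member had an unadjusted p under 0.05. In C against E, 0 passed, beside 0.171% of all genes, and 4 members had an unadjusted p under 0.05. These counts were also 0 in all 17 alternatives of each comparison. P is shared by the first pair of comparisons and C by the first and the last. The median differences of the members were -0.04 in C against P, 0.05 in E against P and -0.05 in C against E, beside -0.02, 0.01 and -0.02 over all genes. The 95% confidence interval lay within a 2-fold change of FPKM + 1 for 31 members in C against P and for 32 in E against P. The data thus do not show that the other members stayed within that range. For low genes this scale understates the change in FPKM.

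**Figure D5:**
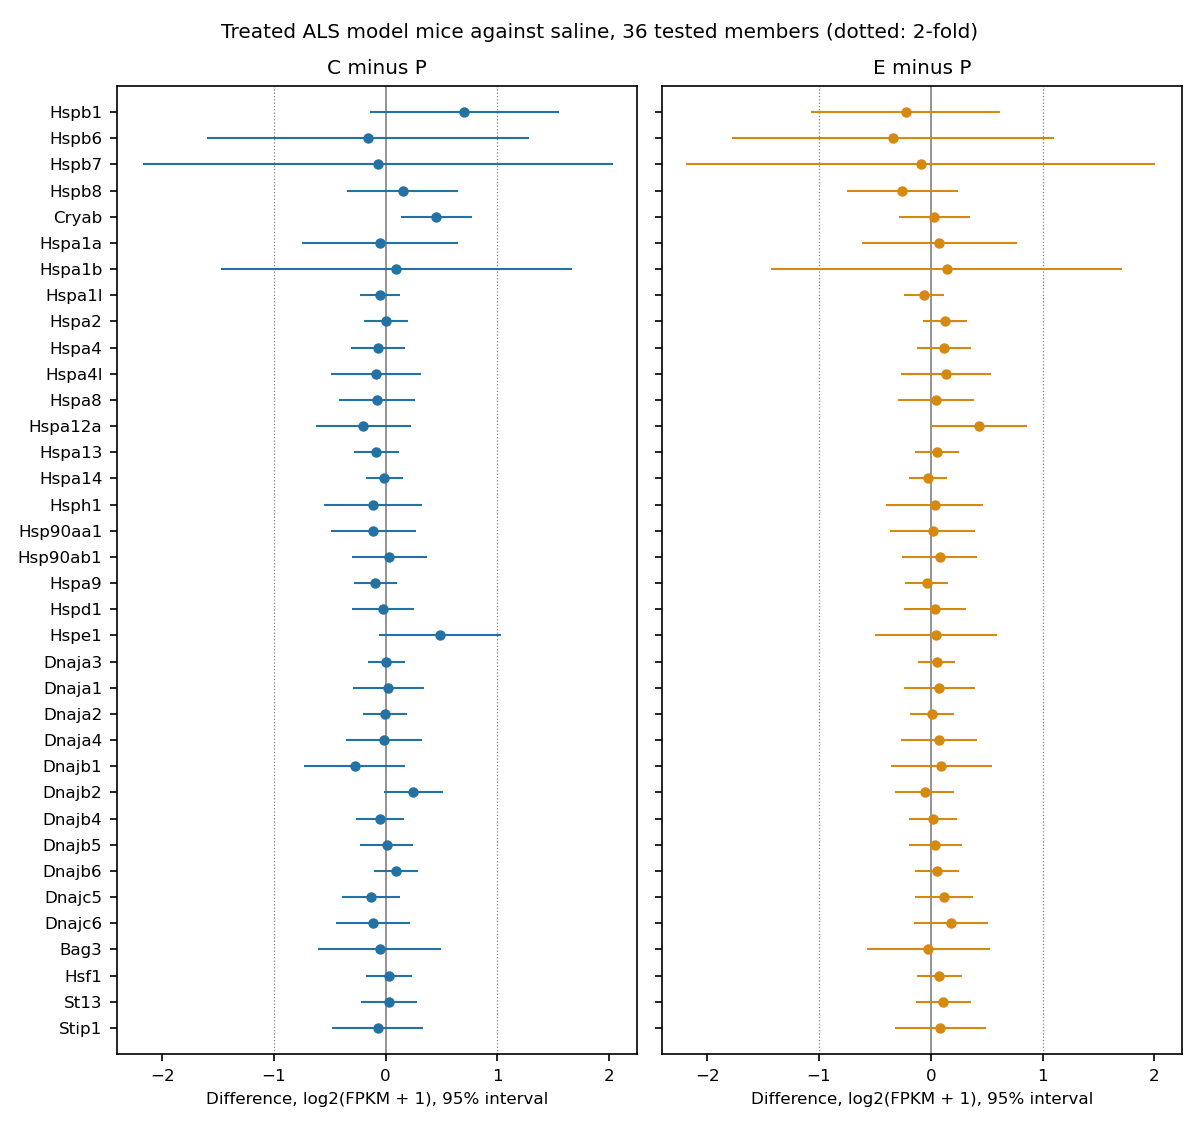
Points show the difference of C minus P (left) and E minus P (right) on the log2(FPKM + 1) scale for the 36 tested chaperones. Bars are 95% confidence intervals, and dotted lines mark a 2-fold change of FPKM + 1. In C the interval of Cryab excludes 0 (0.45) and in E that of Hspa12a begins just above it (0.43), and the widest intervals belong to Hspb7, Hspb6 and Hspb1 among the small heat shock proteins and to Hspa1b.

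The member with the smallest p in C against P was Cryab. It differed by 0.45 ± 0.14 (95% confidence interval 0.14 to 0.77, limma adjusted p = 0.407) and averaged 283 ± 47.9 FPKM in C and 204 ± 10.9 in P (SD, n = 3 each). It was the only member with all C libraries above all P libraries, a pattern of 8.33% of all genes, and Hspa9 the only one with all C libraries below, a pattern of 8.77%. Hspe1 differed by 0.49 ± 0.25 (adjusted p = 0.549) and Hspb1 by 0.70 ± 0.39 (95% confidence interval -0.14 to 1.55, adjusted p = 0.578). C79 and C85, the high libraries of Cryab and Hspe1, also had the largest summed FPKM over all genes of the ALS model libraries, 303226 and 305234, against 274433 to 286824 in the other ALS model libraries. The sum of 8 oligodendrocyte markers was 4839 to 5249 FPKM in C, above all of P (4322 to 4660) and of E (3198 to 4159), and 4728 to 6115 in H. Over all 12 libraries, H4 had the largest summed FPKM, 311723, and the largest oligodendrocyte sum, 6115 FPKM. Its Cryab was 188 FPKM and its Hspe1 45.2 FPKM. H2, with a summed FPKM of 286084, had the highest Hspe1, 53.0 FPKM. The parts of that scale and of these cells in the values were not tested.

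In E against P, 0 members had E libraries all above P, where 4.81% of all genes had this, and 0 had them all below, where 4.2% had this. Hspa12a differed by 0.43 ± 0.20 (95% confidence interval 0.003 to 0.86, limma adjusted p = 0.998). Hspa2 differed by 0.13 ± 0.09 in E against P and passed against H in both groups. Hspb1 differed by -0.22, with E77 and P74 the low libraries of their groups.

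Between the treatments, C libraries lay above all E libraries for Hspb1, Hspb6, Hspb8 and Dnajb2, a pattern of 6.61% of all genes, and below them for Hspa4, Hspa12a, Hspa13, Dnajb1 and Dnajc5, a pattern of 10.3%. Hspa12a averaged 33.8 ± 1.75 FPKM in C and 53.1 ± 6.17 in E (-0.63 ± 0.20, limma adjusted p = 0.286). Hspb1 differed by 0.93 ± 0.39 (adjusted p = 0.412), Cryab by 0.42 ± 0.14 (adjusted p = 0.343) and Dnajb2 by 0.30 ± 0.12 (adjusted p = 0.398). Hspb8 averaged 42.5 ± 5.07 FPKM in C and 31.6 ± 1.72 in E (adjusted p = 0.54). None of these passed.

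Other genes of protein folding were set beside the chaperones by lists of the pathway. In the ALS model groups against H, 20.6% of all genes passed. Of the lists, 0 of 12 Hsp90 co-chaperones and 0 of 8 further Hsp70 co-chaperones passed, with medians of -0.03 and -0.05. For the cytosolic chaperonin TRiC 0 of 8 subunits passed, and 0 of 11 other mitochondrial chaperones and proteases, with medians of 0.02 and 0.03. Of 3 other genes of heat shock factors and their binding protein, Hsf4 fell, at 12.6 FPKM in the ALS model groups against 15.3 in H (-0.27 ± 0.08, limma adjusted p = 0.0354), a call lost without any 1 of H1, H2 and H4 (adjusted p = 0.117, 0.0626 and 0.095). Of 3 further small heat shock genes 1 was tested and did not pass. In C against H, where 8.31% of all genes passed, the mitochondrial list had 1 call. It was Hscb, a J-domain protein of iron-sulfur cluster assembly, at 11.1 FPKM in C against 7.44 in H (0.51 ± 0.13, adjusted p = 0.0303). The call was lost without H1 (adjusted p = 0.0857) and without H2 (adjusted p = 0.109).

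The chaperones of the endoplasmic reticulum, which answer to a separate stress response, had a higher median. Of 10, 3 rose in the ALS model groups, where 16.4% of all genes rose, with a median over the list of 0.35 beside 0.07 over all genes. They were the disulfide isomerase Pdia4 (0.61 ± 0.15, 36.8 FPKM in the ALS model groups against 24.2 in H, limma adjusted p = 0.0144), the lectin chaperone Calr (0.43 ± 0.11, 179 against 134 FPKM, adjusted p = 0.022) and Dnajc3 (0.37 ± 0.09, 28.5 against 22.0 FPKM, adjusted p = 0.0137), an inhibitor of the kinase PERK. The sum over the 10 genes was 627 to 660 FPKM in P, 582 to 638 in C and 558 to 712 in E, against 470 in H1, 635 in H2 and 422 in H4, so H2 lay among the ALS model libraries. Without H1 or without H4, 0 of the 10 passed (medians 0.27 and 0.19), beside 13.4 and 19.9% of all genes. Without H2 6 passed (median 0.51), beside 8.58% of all genes. In C against P, E against P and C against E, 0 genes of these lists passed, beside 0.00552, 0.0 and 0.171% of all genes.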

How the data were processed

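Per the labels' protocols, TRIzol extracts of lumbar cord were enriched for poly(A) RNA, and the second cDNA strand was marked. The tools were cutadapt, HISAT2 and featureCounts on GRCm38, per the submitters' processing notes. The sources used here give no versions and no strand setting, so overlapping genes on opposite strands cannot be separated. The authors deposited FPKM values in 1 table per group; no unit is named in them, and this one was inferred from the numbers. With GENCODE M21 exon lengths (33829 identifiers matched), 95.2 to 95.6% of low values (up to 50 multiples) were within 0.02 of whole reads, 1 read in 1 kb being 0.0542 to 0.0643 FPKM. The reads recovered were 106.6 to 108.0% of the scaling totals, for a reason not resolved. No pair of replicate libraries agreed within sampling noise (chi-square per degree of freedom 5.21 to 52.9).

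FPKM values are not counts, so limma 3.58.1 (R 4.3.3, trended and robust) was run on log2(FPKM + 1), which understates changes of low genes. A fit with 1 mean per group used all 12 libraries (8 residual degrees of freedom, two-sided). A gene was tested with at least 10 recovered reads (0.54 CPM) in 3 libraries and 15 in all, which set 15788 genes aside. The script was tested on simulated data. Alternatives were median-ratio scaling, no filter, a filter of 1 FPKM in 3 libraries, a pseudocount of 0.1, only the groups compared, and each library left out. All 38 members could be named, and from other lists up to 3 genes that passed. The members and lists were chosen with earlier results of these data known. A permutation test of 3 against 3 mice cannot give a p below 0.1.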

Additional observations from a re-analysis of the deposited data

How the results depend on the processing

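Hspa2 kept its direction and its call in all alternatives of all 4 comparisons with H. The number of chaperones that passed ran from 1 to 5 in P against H, 1 to 5 in C against H, 1 to 3 in E against H and 1 to 6 in the 3 ALS model groups against H when single libraries were left out. In the same fits the share of all genes that passed ran from 5.15 to 19.5% in P, 3.13 to 10.9% in C, 6.4 to 15.4% in E and 8.58 to 23.7% in the 3 groups together. It was 2 in P against H with median-ratio scaling, which added Dnaja4 at -0.55. It was 0 in every alternative of C against P, E against P and C against E. Median-ratio scaling lowered the differences from H by a median below 0.1 in the 3 ALS model groups together, with a shift of -0.091 in P, -0.081 in C and -0.0996 in E, and the share of higher genes among all calls was then 53.2% in place of 78.9% in P, 67.03% in place of 87.2% in C, 58.4% in place of 83.7% in E and 53.2% in place of 79.6% in the 3 groups together. In C against E it was 38.2% in place of 29.0%. With this scaling the difference of the ALS model groups from H became -0.029 for Hspa8 and -0.032 for Cryab, and with a pseudocount of 0.1 that of Hspb6 became 0.051. Leaving out single libraries turned the sign of small differences. Against H, with all ALS model groups, the ranges were -0.59 to 0.97 for Hspb6, -0.54 to 0.12 for Bag3, -0.061 to 0.19 for Hspa8, -0.15 to 0.11 for Hsp90ab1, -0.72 to 0.98 for Hspa1b and -0.017 to 0.15 for Cryab. They were -0.64 to 0.086 for Hspb1 in E against P, and -0.19 to 0.032 for Hspa8 and -0.093 to 0.14 for Hsp90ab1 in C against P. The causes were not tested. No paired analysis was possible because no mouse number is shared between groups. With 3 mice per group, the median 95% confidence interval of a member reached 0.32 to either side in a comparison of 2 groups. Over all genes tested it reached 0.25. The RNA is that of whole cord, and levels in single cell types were not measured.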
